A study of Arabidopsis thaliana with 4 samples.

Results

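The early flavonoid pathway was represented by 6 probe sets of the Affymetrix ATH1 array, chosen by name as the enzymes that lead from the first flavonoid to the flavonols, among 22746 probe sets other than controls. They were 250207_at (CHS, also TT4), 250794_at (CHIL), 251827_at (CHI, also TT5), 252123_at (F3H), 250558_at (F3'H, also TT7) and 250533_at (FLS1). The platform annotation used here lists 1 of them, 250794_at, as CHIL. The other names were assigned together with the list of probe sets, and the link from those probe sets to their genes was not checked further. In the TAIR10.1 name table these names belong to AT5G13930, AT5G05270, AT3G55120, AT3G51240, AT5G07990 and AT5G08640, in the order given.

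The leaves came from Arabidopsis thaliana, ecotype Col-0, wild type, grown with 14 h of light and 10 h of dark. Mature leaves of plants without flowers were cut when the light period ended, and their petioles took up 2 mM MES buffer (pH 6.5) for 13 h in darkness. In 2 arrays, sucrose 1 and sucrose 2, the buffer held 100 mM sucrose. In the other 2 arrays, sorbitol 1 and sorbitol 2, it held 100 mM sorbitol, the control for the presence of a dissolved sugar. Every leaf had thus been detached and darkened, and no array came from a leaf before the incubation, so each change below is relative to sorbitol-fed leaves after the same time. Nothing in the labels ties the replicates to separate plants or harvests, so a p-value here weighs a change against array-to-array spread that may be technical. RNA was taken from leaf tissue with several cell types, and more RNA per cell could not be told apart from more cells that hold the transcript.

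Flavonoids are phenolic pigments and sunscreens of plants. Chalcone synthase (CHS) starts the pathway by joining coumaroyl-CoA, from the general phenylpropanoid route, with malonyl-CoA, and chalcone isomerase (CHI) closes the ring of the product. CHIL is a non-catalytic relative of CHI that helps CHS make the right product. Flavanone 3-hydroxylase (F3H) and flavonoid 3'-hydroxylase (F3'H) then add hydroxyl groups, and flavonol synthase (FLS1) turns the resulting dihydroflavonols into flavonols, while dihydroflavonol reductase (DFR) draws the same substrates towards anthocyanins. In Arabidopsis shoots the pathway is known to be raised by light, cold and sugar.

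All 6 early flavonoid genes were higher in sucrose-fed than in sorbitol-fed leaves, by 4.12-fold (CHI) to 23.1-fold (F3'H). CHS, F3H, FLS1 and CHIL rose, that is, passed an adjusted p of 0.05 in limma over all 13648 probe sets tested, and CHI and F3'H did not pass. Of all tested probe sets, 0.366% rose by the same rule. For each of the 6 genes no sorbitol array reached either sucrose array, which was true of 26.1% of all tested probe sets. A rise of 2-fold or more within both replicate pairs was seen for all 6, against 4.62% of all tested probe sets. CHIL and F3'H passed the filter on dim probe sets only through their sucrose values, so they had to be higher in sucrose to be tested. CHS, F3H, FLS1 and CHI were free of that selection, and both statements hold for each of them. Of these, CHS, F3H and FLS1 rose. Ranked by log2 change among all tested probe sets, FLS1 stood at rank 33, CHS at 41, F3H at 54 and CHI at 219. CHIL and F3'H each had 1 sorbitol value at the level of background controls, so their places above these are uncertain.

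CHS, the entry enzyme, had deposited MAS5 intensities of 3401 and 2540 on sucrose 1 and 2, against 209.3 and 268.6 on sorbitol 1 and 2. The groups were far apart, and the spread within each was small. On the log2 scale CHS averaged 11.52 ± 0.30 in sucrose and 7.89 ± 0.25 in sorbitol (SD, n = 2 each). CHS rose by 3.63 ± 0.32 (SE; 95% interval 2.86 to 4.41; limma adjusted p = 0.0192), a 12.4-fold change and the smallest adjusted p of the 6.

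CHIL, the helper of CHS, had intensities of 399.7 and 156.3 in sucrose and 8.0 and 22.8 in sorbitol. Its arrays differed within both groups by more than 2-fold, and the sorbitol 1 value lay below 9.3, the highest intensity of 27 control probe sets for Bacillus genes, taken here as a guide to background. CHIL averaged 7.97 ± 0.96 in sucrose and 3.76 ± 1.07 in sorbitol on the log2 scale. Its rise was 4.21 ± 0.65 (SE; limma adjusted p = 0.0484), close to the threshold, and 4.10 with values below 9.3 raised to that level. The call was lost with quantile normalisation (adjusted p = 0.0636) and without the trend of variance on mean value (adjusted p = 0.0556), both from limma.

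CHI, which closes the ring, had intensities of 338.4 and 220.9 in sucrose and 64.0 and 68.9 in sorbitol. The sorbitol arrays were nearly equal, and both sucrose arrays were more than 3-fold higher. Its log2 change of 2.04 ± 0.34 (SE; 95% interval 1.22 to 2.86) had a limma adjusted p of 0.0527 and did not pass. This was the smallest change of the 6 genes, 4.12-fold, with averages of 8.09 ± 0.44 in sucrose and 6.05 ± 0.075 in sorbitol.

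F3H, the next enzyme, had intensities of 1827 and 1068 in sucrose and 101.0 and 180.9 in sorbitol. The groups were separate, with less than a 2-fold difference between the arrays within each. F3H averaged 10.45 ± 0.55 in sucrose and 7.08 ± 0.59 in sorbitol and rose by 3.37 ± 0.43 (SE; limma adjusted p = 0.0333), or 10.3-fold.

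F3'H, which sets the hydroxyl pattern of the side ring, had intensities of 459.0 and 328.4 in sucrose and 7.0 and 40.5 in sorbitol. The sucrose arrays were close together, whereas sorbitol 1 was below the level of the Bacillus controls and sorbitol 2 above it. The log2 change was the largest of the 6 genes, 4.53, and also had the largest error, 0.78 (SE; 95% interval 2.64 to 6.42; limma adjusted p = 0.0581). With values below 9.3 raised, the change was 4.32 and passed (limma adjusted p = 0.0436). It also passed with the 60th percentile filter, at an unchanged 4.53 (limma adjusted p = 0.0438). Over all tested probe sets 66 and 83 were called higher in these settings, against 50 as reported. F3'H passed in 6 of 15 settings. It failed in limma with quantile normalisation (adjusted p = 0.0736), without the trend (0.0662), with median centring (0.0505) and with no filter (0.133).

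FLS1, at the flavonol branch, had intensities of 414.1 and 218.2 in sucrose and 17.4 and 26.3 in sorbitol. No sucrose array came near the sorbitol arrays. FLS1 averaged 8.23 ± 0.65 in sucrose and 4.42 ± 0.42 in sorbitol and rose by 3.81 ± 0.43 (SE; 95% interval 2.78 to 4.84; limma adjusted p = 0.0275), or 14.1-fold.

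**Figure D1:**
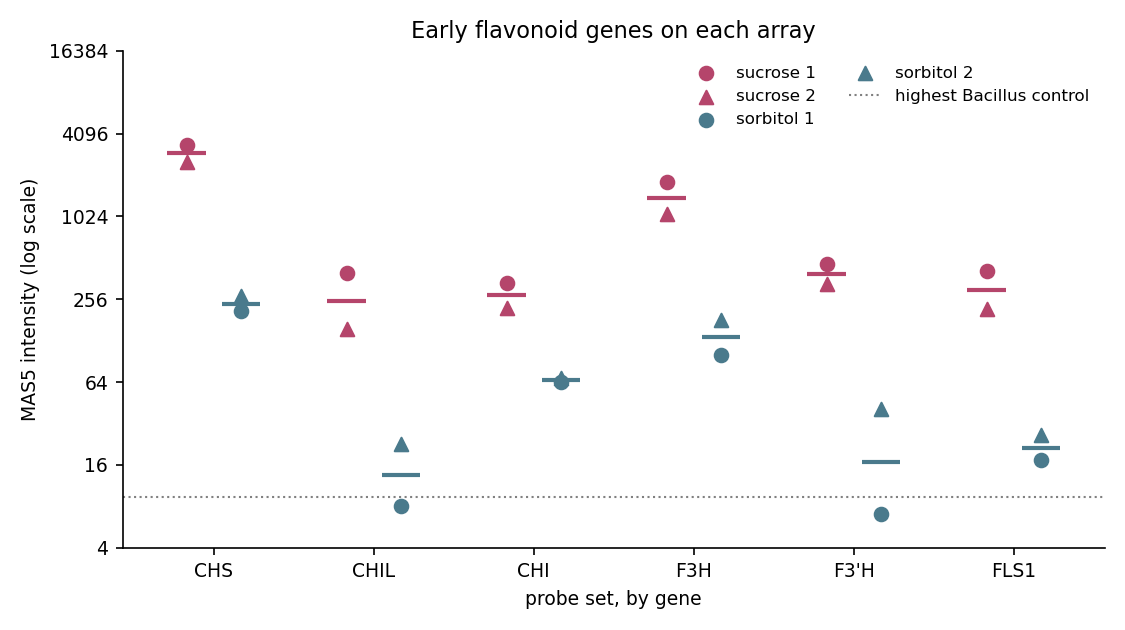
Deposited MAS5 intensity (log axis) of the 6 early flavonoid genes on each array, sucrose left of sorbitol; horizontal bars are the means of log2 values (n = 2) and the dotted line marks 9.3, the highest Bacillus control. For every gene the sucrose points lie above the sorbitol points, and CHIL and F3'H each have 1 sorbitol value under the dotted line.

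**Figure D2:**
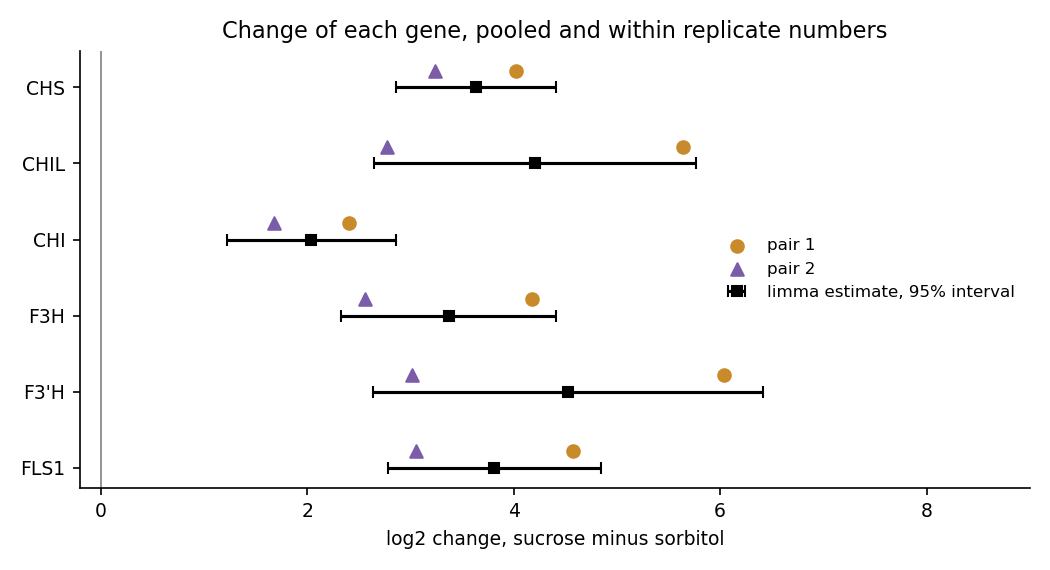
Log2 change, sucrose minus sorbitol, of each gene, with the limma estimate and its 95% interval (squares and bars) and the changes in pair 1 (circles) and pair 2 (triangles). CHI has the smallest change, 2.04, F3'H the largest, 4.53, and pair 1 exceeds pair 2 for every gene.

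All 6 probe sets passed the filter on dim probe sets, which asked for a mean over the 4 arrays at or above an intensity of 18.6. For CHIL and F3'H the sorbitol mean alone was under that level, so these entered the test through their sucrose values and had to differ to be tested. The other 4 exceeded it in both groups. With 2 arrays against 2, the smallest two-sided p that an exact permutation test of a single gene allows is 0.333, so the calls rest on the variance that limma shares over probe sets.

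The calls depended on the sorbitol arrays. Without sorbitol 1, none of the 6 passed in limma (adjusted p of 0.181 to 0.271), although their changes were 1.99 to 3.51, and all 6 changes still pointed upwards. Without sorbitol 2, none passed either (adjusted p of 0.0741 to 0.259), with changes of 2.09 to 5.79. All 6 kept an unadjusted limma p under 0.05 in both fits. There the lone array was assumed to vary like the sucrose arrays, and of all tested probe sets 1 and 0 were higher at an adjusted p under 0.05, and 872 and 677 at an unadjusted one. Leaving out sucrose 1 gave 5 calls among the 6 genes, CHI included (change 1.73, limma adjusted p = 0.0432), and leaving out sucrose 2 gave 4. Probe sets called higher were 403 and 23 in these fits, or 2.95% and 0.169% of those tested.

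The size of the changes differed between the replicate numbers. In pair 1, sucrose 1 minus sorbitol 1, the log2 changes of the 6 genes were 2.40 to 6.04, and in pair 2 they were 1.68 to 3.24. F3'H had 6.04 in pair 1 and 3.02 in pair 2, and CHIL had 5.64 and 2.78. Their sorbitol 1 values lay below 9.3, and with such values raised the pair 1 changes were 5.63 for F3'H and 5.43 for CHIL. FLS1 had 4.57 and 3.05, and F3H had 4.18 and 2.56. CHS was steadier, with 4.02 and 3.24, as was CHI, with 2.40 and 1.68. The change was larger in pair 1 for 6 of 6 genes, while among the 4861 tested probe sets higher in sucrose in both pairs this held for 46.8%. With 1 array on each side of a pair, the difference between pairs was not tested.

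Both sides of the comparison contributed to that difference. All 6 genes stood in the same order over the arrays, from sucrose 1 through sucrose 2 and sorbitol 2 down to sorbitol 1. That order was found in 5.3% of all tested probe sets. It requires both sucrose arrays to lie above both sorbitol arrays, already reported for these genes. Of the 3568 tested probe sets that met this requirement, 723 had the full order. CHIL and F3'H were tested only through their sucrose values. Sucrose 1 exceeded sucrose 2 by 0.42 (CHS) to 1.35 (CHIL) log2 units. Sorbitol 2 exceeded sorbitol 1 by 0.11 (CHI) to 2.53 (F3'H) log2 units. Over all tested probe sets the medians of these differences were 0.13 and -0.08. Within a group, neighbours in that order had 1 array each, so their difference was not tested.

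**Figure D3:**
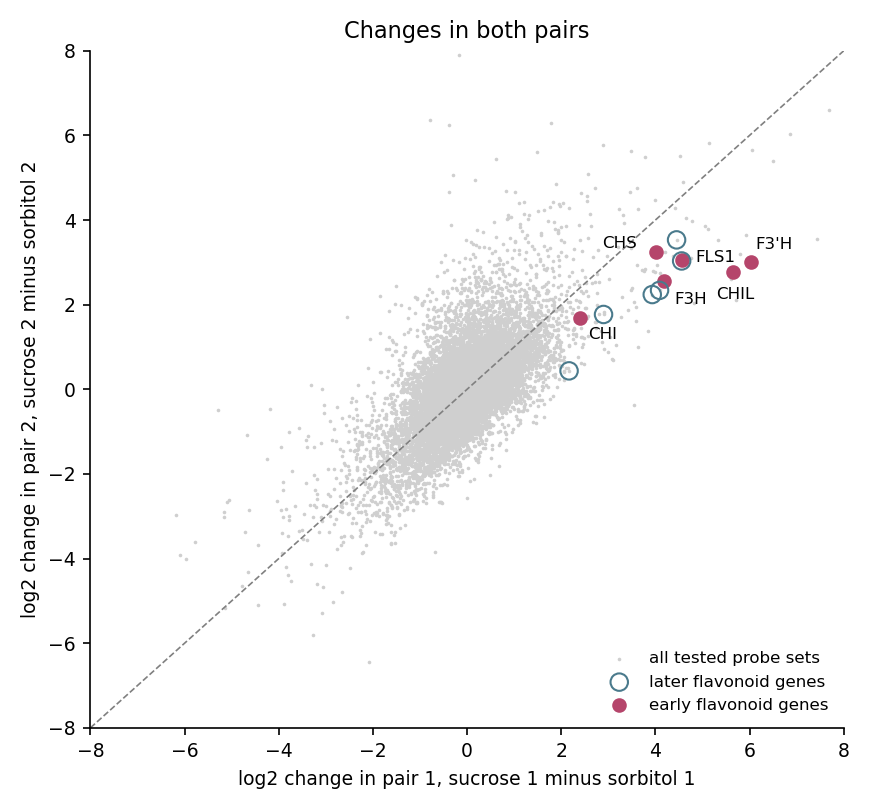
Log2 change in pair 1 (x axis) and in pair 2 (y axis), sucrose minus sorbitol, of all 13648 tested probe sets (grey), the 6 early flavonoid genes (filled) and the 6 tested later flavonoid genes (open); the dashed line marks equal change in both pairs. All 6 early genes lie to the right of most grey points and below the dashed line, with CHIL and F3'H the farthest right of the 6. CHI is the least far right of the 6, at rank 118 of all tested probe sets in pair 1.

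Other measurements also differed between replicates 1 and 2. The control for 25S ribosomal RNA had an intensity of 1255 on sucrose 1 and 2163 on sorbitol 1, against 56.6 on sucrose 2 and 14.4 on sorbitol 2. RNA quality was read as how far the 3 prime signal of the older GAPDH control exceeded its 5 prime signal. That excess was 0.20 log2 units on sucrose 2 and 1.43 to 1.85 on the remaining arrays. Other controls differed from this. The newer GAPDH control had nearer 3 prime and 5 prime intensities, such as 1718 and 1550 on sucrose 1. Those of the newer actin control were 1061 and 277.7 on sucrose 1 and 1009 and 549.9 on sucrose 2. On sorbitol 1 they were 590.5 and 160, and on sorbitol 2 574 and 84. The part of these differences in the flavonoid changes was not tested. Within each pair all 6 genes were higher in sucrose, while the arrays of a pair differed in that ribosomal RNA control too, by -0.79 log2 units in pair 1 and 1.97 in pair 2. The newer GAPDH control, a housekeeping transcript, was itself higher in sucrose, by 1.20 log2 units at its 3 prime probe set. Housekeeping controls did not move alike. At the 3 prime probe sets of the newer actin and ubiquitin controls the log2 changes were 0.83 and -0.31. At their 5 prime probe sets they were 1.75 and 0.27. With arrays centred on the GAPDH probe set, a choice made once the data had been seen, the 6 changes were 0.84 (CHI) to 3.33 (F3'H). The median of all tested probe sets was then -1.18. Centred on 18 spiked controls, chosen likewise, the 6 changes were 2.36 to 4.84, with that median at 0.34. CHI did not pass under either centring (limma adjusted p = 0.214 and 0.0867), and the other 5 genes did. Calls higher and lower over all tested probe sets were 50 and 126 as deposited, 111 and 4389 centred on GAPDH, and 24 and 30 centred on the spiked controls.

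Differences between genes within an array do not depend on how that array was scaled. CHS minus CHI was 3.33 and 3.52 log2 units on the sucrose arrays and 1.71 and 1.96 on the sorbitol arrays, a shift of 1.59 that was 1.62 in pair 1 and 1.56 in pair 2. The signal of CHS over that of CHI thus moved upwards to nearly the same extent in both pairs. FLS1 minus CHI shifted by 1.77, F3H minus CHI by 1.33, CHIL minus CHI by 2.17 and F3'H minus CHI by 2.49. With values below 9.3 raised, the shifts of CHIL and F3'H against CHI were 2.06 and 2.28. In all 5 comparisons the sucrose arrays lay above both sorbitol arrays, so CHI changed less than each of the other 5 genes on these arrays. CHI was set against the others after its change was seen to be the smallest, and with 2 arrays against 2 an exact permutation test cannot go below p = 0.333. Among the 10 pairs of genes without CHI, the groups did not overlap in 3, with shifts of 0.18 to 1.16 in size over the 10. Group labels dealt at random give no overlap, in either direction, with probability 0.333, and 3 of 10 is near that. The 5 comparisons with CHI share its values and are not separate results.

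**Figure D4:**
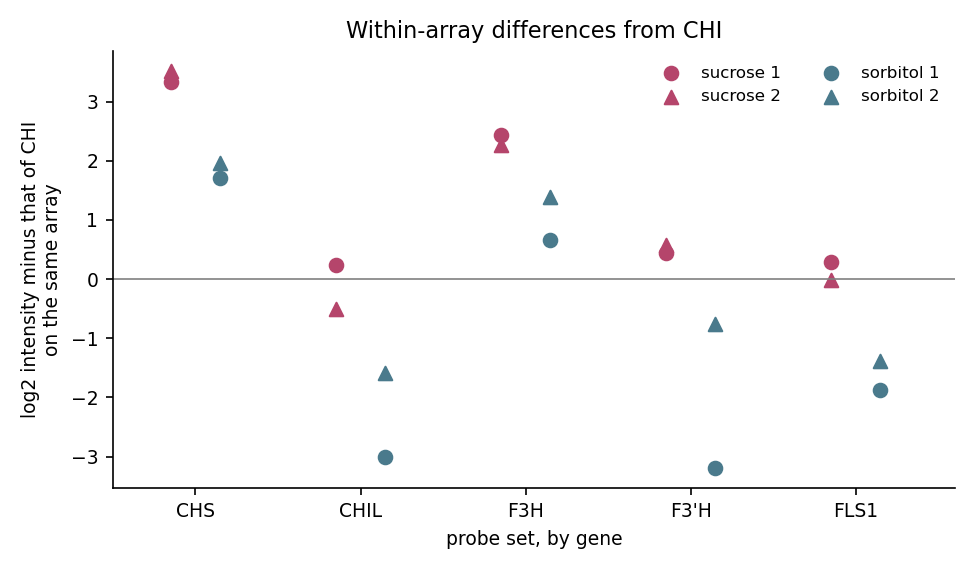
Log2 intensity of each of 5 early flavonoid genes minus that of CHI on the same array, sucrose left of sorbitol, circles for replicate 1 and triangles for replicate 2. For each gene both sucrose values lie above both sorbitol values, and for CHS the replicates nearly coincide, at 3.33 and 3.52 in sucrose and 1.71 and 1.96 in sorbitol.

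The branch between flavonols and anthocyanins was compared through FLS1 and DFR, which share substrates. FLS1 minus DFR was -1.66 and -2.11 log2 units on the sucrose arrays and -2.14 and -2.82 on the sorbitol arrays. The shift of 0.60 was in the same direction in pair 1 (0.49) and pair 2 (0.71), but sucrose 2 and sorbitol 1 differed by less than the arrays within either group did. F3H minus DFR shifted by 0.16 with overlapping groups, so F3H and DFR showed like changes, 10.3-fold and 9.27-fold.

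Of the rest of the pathway, the later enzymes of anthocyanin and flavonoid decoration had 9 of 16 listed genes annotated and 6 tested. All 6 tested were higher in sucrose and 3 rose, beside 0.366% of all tested probe sets, and their median log2 change was 3.15, or 4.01 and 2.29 in pairs 1 and 2, beside 0.02 over all tested probe sets. One of them, AT5MAT, was tested only through its sucrose values, its sorbitol mean being under the filter, and with values below 9.3 raised the median was 2.88. DFR had intensities of 1306 and 941.8 in sucrose and 76.8 and 186.3 in sorbitol and rose by 3.21 (limma adjusted p = 0.0459). The anthocyanin 5-O-glucosyltransferase UGT75C1 (AT4G14090) rose by 3.99 and the anthocyanin xylosyltransferase UF3GT by 3.79. These 3 genes passed in neither limma fit that left out a sorbitol array (adjusted p of 0.175 to 0.218 without sorbitol 1 and 0.0859 to 0.101 without sorbitol 2), and DFR also failed without sucrose 2 (adjusted p = 0.0663). UGT78D2, which adds glucose to flavonols and anthocyanins, had a log2 change of 2.33, short of the threshold (limma adjusted p = 0.0531). UGT78D2, UGT78D1 and AT5MAT, a malonyltransferase for anthocyanins, were, like the early genes, highest on sucrose 1 and lowest on sorbitol 1.

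The decoration of flavonols included a gene that the filter on dim probe sets left out. UGT89C1 (AT1G06000), the flavonol 7-O-rhamnosyltransferase, had intensities of 201.4 and 72.0 in sucrose and 1.6 and 1.5 in sorbitol. Both sorbitol values lay far below the Bacillus controls, so the size of the change is uncertain. With values below 9.3 raised, UGT89C1 was 12.9-fold higher in sucrose, and without the filter its limma adjusted p was 0.0735. It was singled out after its values were seen. UGT78D1, the flavonol 3-O-rhamnosyltransferase, had 493.3 and 266.4 in sucrose and 109.9 and 197.0 in sorbitol, a log2 change of 1.30 that did not pass (limma adjusted p = 0.182). BAN, which makes the precursors of seed coat tannins, and UGT78D3, a flavonol arabinosyltransferase, were under 9.3 on every array and were not tested.

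Of 7 listed genes for the supply of malonyl-CoA, the substrate of CHS, 4 were measured. All 4 encode subunits of ATP-citrate lyase, which makes the acetyl-CoA for it in the cytosol. The step from acetyl-CoA to malonyl-CoA, listed as ACC1 and ACC2, was not analysed here. None passed, and 3 were higher and 1 lower, with a median log2 change of 0.27 that turned to -0.93 when centred on GAPDH. ACLA-3 had a change of -0.51, ACLA-2 of 0.45, ACLB-1 of 0.32 and ACLA-1 of 0.21. Centred on GAPDH, all 4 lay below 0. Their largest change as deposited was under 2-fold, next to rises of 10.3-fold and more in CHS and F3H. In the lignin and sinapate branch, which draws on the same coumaroyl-CoA, 3 of 11 genes were annotated and 2 tested. HCT, which directs coumaroyl-CoA towards lignin, had a change of -0.26, and the sinapate enzyme ALDH2C4 of 0.55, and neither passed. Both signs turned with the scaling, HCT to 0.059 centred on the spiked controls and ALDH2C4 to -0.65 centred on GAPDH. UGT84A1, a glucosyltransferase for hydroxycinnamic acids, was under 9.3 on every array.

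Among 20 listed regulators of the pathway, 1 was named in the platform annotation as the single gene of a probe set. HYH, a bZIP factor close to HY5 that acts in light signalling, had intensities of 54.7 and 75.3 in sucrose and 86.1 and 118.1 in sorbitol. HYH thus lay lower in sucrose, with a log2 change of -0.65 in both pairs, and did not pass (limma adjusted p = 0.352). The general phenylpropanoid genes (9 listed) and the further flavonol synthase-like genes (4 listed) were not named there as single genes and were not analysed here.

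The genes whose pattern over the 4 arrays was most like the mean of the 6 early flavonoid genes were AT4G34950, AT4G37295, UF3GT, DFR and AT2G16890, in that order. Likeness was the distance between log2 values centred on each gene's mean over the 4 arrays, and these 5 had distances of 0.39 to 0.53 among 7286 candidates with a median of 3.75. Of the 6 genes themselves F3H was nearest to the common pattern, at 0.25, and CHI farthest, at 1.68. Each of the 6 is part of that mean, and the candidates are not, so the distances are not alike. AT4G34950 had intensities of 601.9 and 377.2 in sucrose and 38.0 and 55.7 in sorbitol. AT2G16890, a UDP-glycosyltransferase, had 105.6 and 102.6 in sucrose and 6.4 and 13.5 in sorbitol. Both sorbitol values of AT2G16890 lay under the filter level of 18.6, so it was tested only through its sucrose values. Its sorbitol 1 value was also below 9.3. All 5 had higher values on sucrose 1 than on sucrose 2 and lower values on sorbitol 1 than on sorbitol 2. The mean used to choose them has that order, so the choice favoured it. A distance over 4 arrays that share 1 contrast describes the pattern only.

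Levels of leaf cell type markers were compared, and few of the markers were annotated. A lower marker level could mean fewer such cells or less of that RNA per cell, which could not be told apart. The 2 measured mesophyll markers (of 6 listed), PRK and RCA, summed to intensities of 2354 and 1318 in sucrose and 7070 and 5989 in sorbitol. The 2 measured guard cell markers (of 4), FMA and AT1G22690, summed to 66.1 and 53.9 in sucrose and 154.5 and 134.8 in sorbitol. No measured marker was at 0 on any array. The summed marker levels thus lay lower in sucrose. Of the 4 markers PRK fell (limma adjusted p = 0.0487; 0.923% of all tested probe sets fell). That call was lost without sucrose 2, sorbitol 1 or sorbitol 2 (limma adjusted p of 0.0658, 0.264 and 0.226). RCA, AT1G22690 and FMA did not pass, at log2 changes of -1.61, -2.16 and -0.33, so the guard cell sum differed mainly through AT1G22690. The part of cell type makeup in the flavonoid changes was not tested. Epidermis, trichome, phloem and xylem markers were not analysed here.

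**Figure D5:**
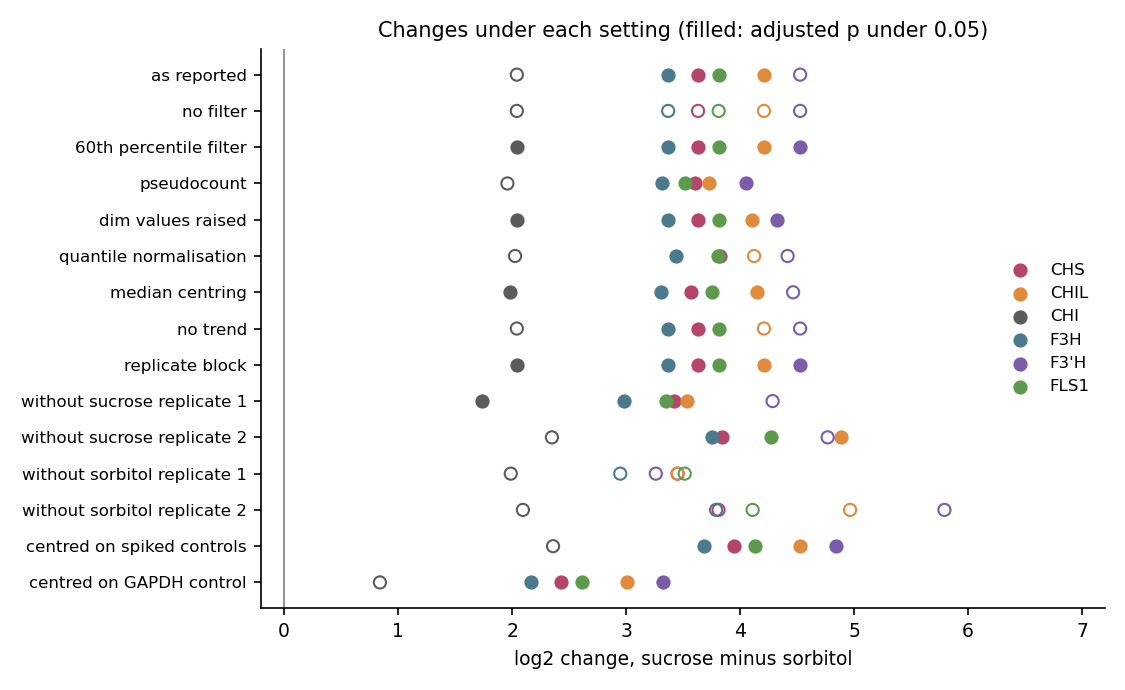
Log2 change, sucrose minus sorbitol, of the 6 early flavonoid genes as reported and under each alternative setting; filled points passed an adjusted p of 0.05 in limma. All changes lie above 0 in every setting, CHI has the smallest change in each, and none of the 6 passed with no filter or without either sorbitol array.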

How the data were processed

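The authors deposited 1 MAS5 intensity per probe set and array, per the submitters' processing notes, and the labels' protocols give 10 µg of biotin-labelled total RNA. The version of MAS5 and the genome build are not given in the sources used here. Each array had a 2% trimmed mean of 100.0, so the intensities were taken as linear and scaled by the authors and were not scaled again. The 64 control probe sets were kept out of tests. Values under 0.1 were set to 0.1 and log2 was taken of the deposited intensities; that floor touched no early flavonoid gene. Probe sets at or above the 40th percentile of mean log2 value (13648 of 22746) entered limma (version 3.58.1, R 4.3.3; lmFit, eBayes with trend), with Benjamini-Hochberg adjustment over all of them and a threshold of 0.05. The fit was tested on simulated data. Detection calls were not used, so signal over background was judged by the 27 Bacillus controls, and the number of arrays limits the precision.

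The members, gene lists and tests were chosen with earlier results of these data known. The text names all 6 members, up to 4 tested genes per list by smallest p, and the 5 most alike genes; others are named after their values were seen. Lists hold 67 genes of the pathway and 26 markers, and 17 and 4 had a single-gene probe set. Of 13513 single-gene probe sets, 13436 took their name from the TAIR10.1 table by gene number; no coordinates are given because the array's build is not stated. Alternatives were 2 filters, a pseudocount of 5.3, dim values raised to 9.3, quantile normalisation, median centring, no trend, a block for replicate number, leaving out each array, and, chosen after seeing the data, centring on spiked controls or on GAPDH.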

Additional observations from a re-analysis of the deposited data

Results flagged for a closer look

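A pair of control probe sets kept out of the comparison carried a signal of their own, at least 2-fold higher on the sucrose array than on the sorbitol array in both pairs. The newer GAPDH control was higher in sucrose by 1.20 log2 units at its 3 prime probe set, with intensities of 1718 and 2468 in sucrose and 782.4 and 1025 in sorbitol. At its 5 prime probe set it was higher by 1.32 log2 units, with 1550 and 2480 in sucrose and 758.7 and 813.9 in sorbitol. Both differences are smaller than the change of every early flavonoid gene, of which CHI, at 2.04, is the smallest.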

How the results depend on the processing

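All 6 early flavonoid genes were higher in sucrose under the main setting and all 14 alternatives. Both other filters, the fit without the trend and the replicate block leave each estimate as it is. These alternatives could alter the p-values only, so they say nothing about direction. Calls among them (4) were 0 with no filter (changes as reported, 3.63 for CHS, 4.21 for CHIL, 3.37 for F3H and 3.81 for FLS1; limma adjusted p of 0.0588 to 0.133, all 6 with an unadjusted p under 0.05), and 0 to 5 without 1 array. CHIL was lost with quantile normalisation (4.12) and without the trend (4.21). CHI was gained with the 60th percentile filter (2.04), dim values raised (2.04) and median centring (1.98). F3'H was gained with the 60th percentile filter (4.53), the pseudocount (4.05), dim values raised (4.32), spiked-control centring (4.84) and GAPDH centring (3.33). Changes without 1 array were 3.42 to 3.84 for CHS, 3.45 to 4.97 for CHIL, 1.73 to 2.35 for CHI, 2.95 to 3.79 for F3H, 3.26 to 5.79 for F3'H and 3.35 to 4.27 for FLS1. Probe sets higher and lower (50 and 126) numbered 83 and 182 under the 60th percentile filter, 1 and 2 under no filter, 63 and 196 after median centring, 22 and 72 after quantile normalisation and 26 and 77 without the trend. With the pseudocount they numbered 60 and 139, and with dim values raised 66 and 147. They were 24 and 30 with spiked-control centring, 111 and 4389 with GAPDH centring, and 0 to 403 and 0 to 545 without 1 array. Later flavonoid genes called (3) were 0 with no filter, 5 with the pseudocount or dim values raised, and 0 to 4 without 1 array. The malonyl-CoA median (0.27) was 0.59 with spiked-control and -0.93 with GAPDH centring, which called 1 gene, and 0.090 to 0.38 without 1 array. The causes of these differences were not tested.

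With the replicate number as a block, all 6 early genes passed (limma adjusted p of 1.63e-05 to 0.001), CHI (2.04) and F3'H (4.53) among them, as did 6 later genes, and probe sets higher and lower were 1130 and 1206. The labels do not say that the number marks a batch; over probe sets, arrays with the same number deviated from their group means together (r = 0.43), which 2 pairs cannot settle, and the fit then has 1 residual degree of freedom. A mean over probe sets of a gene was not run because 0 listed genes had more than 1.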
